A study of Mus musculus with 80 samples.

Results

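The genes described here encode subunits of oxidative phosphorylation, the mitochondrial machinery that makes most of the ATP of a resting cell. The list held 51 genes encoded in the nucleus. They were taken by name and not by a cut on their values, but with earlier results of these data known. In all, 49 of them were measured and tested among 8766 tested genes of 12393 on the array. Of the other two, Ndufs6 shared its only named probe set with a second symbol, and Cox7b had none under its own name, so neither was analysed here. For each gene the brightest of its probe sets was used, on the scale log2(intensity + 5), and all 49 lay above the filter on low values, an intensity of 74.6, on all 80 arrays. The filter therefore removed no member because of a low value in some genotype.

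In the electron transport chain, complex I takes electrons from NADH and complex II from succinate. Complex III passes them through cytochrome c to complex IV, which reduces oxygen. Complexes I, III and IV pump protons across the inner membrane, and complex V, the ATP synthase, uses the returning protons to make ATP. Most subunits are imported from the cytosol and assembled in fixed ratios, and their genes have long been known to be expressed together, with NRF1, the ETS factor GABP, YY1 and the estrogen-related receptors among the regulators named for them. Myc is known to raise mitochondrial biogenesis in several cell types, and E2F1 has been described as a regulator of oxidative genes in muscle and brown fat.

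The samples were mammary tumours of FVB mice that carried MMTV-Myc, a transgene in which the mouse mammary tumour virus promoter drives Myc mainly in mammary epithelium. All 4 groups carried it, so no tumour was without the transgene. The groups were E2F wild type (WT), E2F1 null, E2F2 null and E2F3 heterozygous, with 20 tumours each, flash frozen and measured on 1 Affymetrix array per tumour. The labels state no age. The titles carry a number before a hyphen, called the label number below, and 46 of the 80 tumours shared one with another tumour, so that the groups held 16, 16, 11 and 10 label numbers. What that number stands for is not stated, and p-values measure only the spread between these tumours.

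Facts of the whole series that bear on the values were as follows. E2F1 null replicate 6 stood apart, with a mean correlation of 0.807 with the other arrays, where the next lowest was 0.847 and the median 0.906. Of 15 luminal epithelial markers 12 passed the filter, and Esr1 and Pgr, the hormone receptors, did not. One E2f1 probe set was lower in E2F1 null than in WT tumours (log2 difference -0.59, SE 0.14, limma adjusted p = 0.0469 over 14092 probe sets), while the brighter one (-0.18, SE 0.10, adjusted p = 0.9996) and the E2f3 probe set in E2F3 heterozygous tumours (-0.19, SE 0.12, adjusted p = 0.9999) did not pass. The ranges overlapped in each case, the position of these probes relative to the deleted parts is not known here, and no E2f2 probe set was named.

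To show what precedes these genes, 38 of the 49 could be matched by symbol to RefSeq promoters of the assembly GRCm38.p6, giving 42 promoters of 300 bases, from 250 before a transcription start to 50 after it. The sequences below are those of the 3 members whose expression followed the other members most closely over tumours (Ndufb5, Uqcrc1 and Uqcrfs1), of the member that followed them least (Ndufa7, 1 of its starts), and of the members highest in that order with a YY1 or an ETS motif (Ndufc1 and Sdhb). Each is written from 5′ to 3′ on the strand of the gene, and capitals mark motif matches on either strand.

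Ndufb5, chr3:32736813-32737112, plus strand: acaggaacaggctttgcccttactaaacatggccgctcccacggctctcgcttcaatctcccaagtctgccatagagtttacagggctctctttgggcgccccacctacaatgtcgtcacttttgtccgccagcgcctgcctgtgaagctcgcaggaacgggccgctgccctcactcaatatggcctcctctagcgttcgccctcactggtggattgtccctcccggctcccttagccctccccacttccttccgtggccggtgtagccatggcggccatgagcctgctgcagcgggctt
Uqcrc1, chr9:108936398-108936697, plus strand, NRF1 motifs in capitals: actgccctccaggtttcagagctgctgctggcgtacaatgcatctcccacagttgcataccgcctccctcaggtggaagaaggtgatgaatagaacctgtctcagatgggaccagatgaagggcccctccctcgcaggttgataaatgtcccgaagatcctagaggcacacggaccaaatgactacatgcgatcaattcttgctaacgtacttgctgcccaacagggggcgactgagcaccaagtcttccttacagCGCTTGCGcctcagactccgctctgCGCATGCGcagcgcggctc
Uqcrfs1, chr13:30545267-30545566, minus strand: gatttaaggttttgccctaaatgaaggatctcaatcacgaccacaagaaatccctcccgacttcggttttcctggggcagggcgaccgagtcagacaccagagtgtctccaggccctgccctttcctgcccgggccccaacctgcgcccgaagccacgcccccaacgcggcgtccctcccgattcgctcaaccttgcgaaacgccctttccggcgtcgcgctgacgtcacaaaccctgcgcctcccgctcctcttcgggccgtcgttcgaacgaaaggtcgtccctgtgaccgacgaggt
Ndufc1, chr3:51408906-51409205, minus strand, YY1 motif in capitals: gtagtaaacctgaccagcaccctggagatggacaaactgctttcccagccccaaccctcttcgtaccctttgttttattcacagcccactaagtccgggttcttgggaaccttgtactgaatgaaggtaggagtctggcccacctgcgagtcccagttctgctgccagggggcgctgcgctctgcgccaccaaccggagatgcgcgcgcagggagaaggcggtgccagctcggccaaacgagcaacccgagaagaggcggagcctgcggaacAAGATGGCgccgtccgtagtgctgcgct
Sdhb, chr4:140961021-140961320, plus strand, ETS motif in capitals: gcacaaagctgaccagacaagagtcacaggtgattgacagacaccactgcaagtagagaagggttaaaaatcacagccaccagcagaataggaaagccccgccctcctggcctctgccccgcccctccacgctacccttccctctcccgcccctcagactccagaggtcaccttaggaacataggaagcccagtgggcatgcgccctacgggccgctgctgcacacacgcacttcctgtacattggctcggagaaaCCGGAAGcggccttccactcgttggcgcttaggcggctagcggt
Ndufa7, chr17:33824322-33824621, plus strand, E-box and NRF1 motifs in capitals: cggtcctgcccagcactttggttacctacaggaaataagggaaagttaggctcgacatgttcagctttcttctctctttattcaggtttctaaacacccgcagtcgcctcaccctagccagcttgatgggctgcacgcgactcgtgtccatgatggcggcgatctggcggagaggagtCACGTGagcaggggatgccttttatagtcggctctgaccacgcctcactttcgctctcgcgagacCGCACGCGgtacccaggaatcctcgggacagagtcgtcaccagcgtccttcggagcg

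Uqcrc1, a core protein of complex III, held 2 matches to the NRF1 motif, beginning 6 and 31 bases after its start. Ndufc1, a subunit of the complex I membrane arm, held the YY1 motif 22 bases after its start, and Sdhb, the iron-sulfur subunit of complex II, held the ETS motif 6 bases after its start. Ndufb5 and Uqcrfs1, both of which followed the other members closely, held none of the 6 motifs searched. Ndufa7 held an NRF1 motif that begins 7 bases before its start and an E-box.

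Over the 42 member promoters, the NRF1 motif (CGCANGCG, both strands) occurred in 33.3%, against 8.21% of all 32851 promoters of the same length in the table and 16.9% of the 9138 promoters of the other tested genes. The YY1 motif (AAGATGGC) occurred in 16.7%, against 2.75% of all promoters and 4.4% of those of the other tested genes. The ETS motif (CCGGAAG) occurred in 16.7%, close to the 17.5% among the other tested genes, and 8.86% of all promoters held it. The E-box (CACGTG), which Myc binds, occurred in 9.52%, against 7.15% and 10.1%. The ESRRA motif (AAGGTCA) occurred in 4.76%, against 4.72% and 3.18%. The E2F motif (GCGNGAAA) occurred in none of the 42, against 2.09% of all promoters and 3.83% of those of the other tested genes. Only this spelling was searched, so E2F sites spelled otherwise were not counted. No 2 matches of different motifs overlapped in member promoters. A match is a description of letters in this window, and the windows differ in base composition: the median number of CG dinucleotides was 19.5 in member promoters, 7.0 in all and 20.0 in those of the other tested genes. The 12 members with an NRF1 motif had a median correlation with the other members of 0.738, and the 26 without one had 0.796.

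The first question the design raises is whether the loss of an E2F gene altered these genes in Myc tumours. No oxidative phosphorylation gene passed a Benjamini-Hochberg adjusted p of 0.05 in any of the 6 comparisons between genotypes or in the F test over all 4 (limma over all 8766 genes, label number as a random block). In bulk tumour RNA, fewer cells of a type and less RNA per cell cannot be told apart. The means of the 49 genes, as log2 differences from the mean of all tumours, were -0.003 ± 0.227 in WT and -0.001 ± 0.194 in E2F1 null tumours (SD, n = 20 each). They were 0.062 ± 0.179 with E2F2 null and -0.057 ± 0.179 with E2F3 heterozygous (SD, n = 20 each). The group means differed by less than the SD within any group, and the ranges overlapped broadly.

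**Figure D1:**
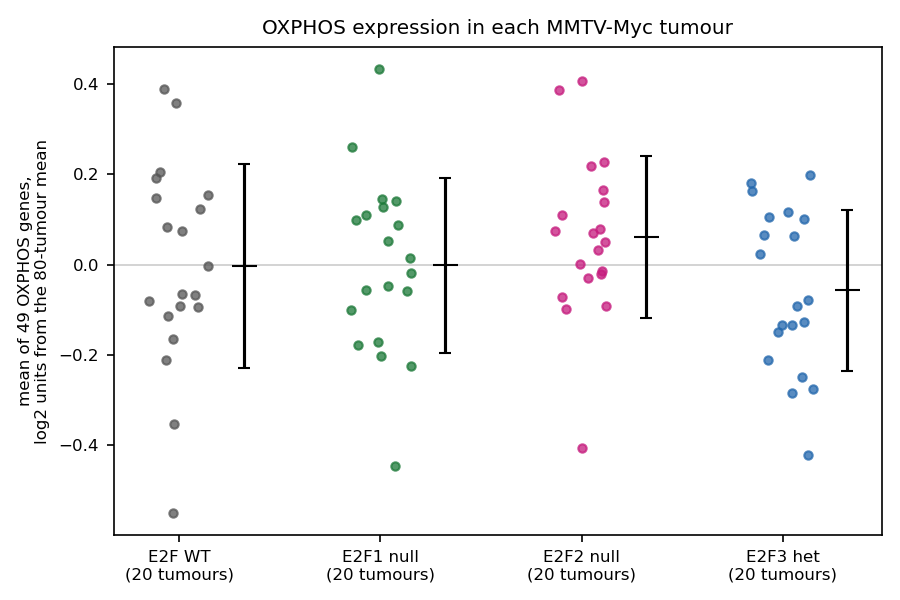
Mean of the 49 oxidative phosphorylation genes in each of 80 MMTV-Myc tumours (y axis, log2 units from the 80-tumour mean) by E2F genotype (x axis). Points are tumours, spread sideways for visibility, and the dash with bars is the group mean ± SD; the 4 groups overlap, from -0.55 in 1 WT tumour to 0.43 in 1 E2F1 null tumour.

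In E2F1 null against WT tumours, 24 members were higher and 25 lower, with a median log2 difference of -0.0003, where that of all tested genes was 0.008. Of all genes 53.3% were higher. Of the 49, 0 passed the adjusted threshold, where 0.0456% of all genes did, and 0 had an unadjusted p under 0.05, where 1.29% of all genes did. The lowest adjusted p was 0.9997. The highest differences were those of Ndufs4, a peripheral-arm subunit of complex I needed for its stability (0.13, SE 0.087, 95% confidence interval -0.04 to 0.31), and Ndufa7, another peripheral-arm subunit (0.08, SE 0.072). The lowest were those of Uqcrq, a small subunit of complex III (-0.10, SE 0.15), and Ndufa4, a subunit first assigned to complex I and later to complex IV (-0.10, SE 0.11). The confidence intervals of all 49 lay within 0.5 log2 units of 0, so larger differences than that lay outside them for each member. Of the marker lists for other cells, 7 of 19 fibroblast and matrix genes (median -0.04) and 4 of 13 macrophage genes (-0.02) were higher in E2F1 null tumours, as were 8 of 10 endothelial genes (0.07), and none of them was called. Without the 5 tumours of highest fibroblast marker levels, described below, 12 of the 49 members were higher and the median was -0.02; this setting was chosen after the data were seen.

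In E2F2 null against WT tumours, 39 members were higher and 10 lower, with a median of 0.08 log2 units against -0.01 over all genes. Of all genes 46.3% were higher. None of the 49 passed the adjusted threshold, where 0.0228% of all genes did, and 3 (6.12%) had an unadjusted p under 0.05, where 6.14% of all genes did. The members' share was thus that of the background. Those 3 were Ndufa2, Cyc1 and Ndufs4, each at an adjusted p of 0.787. Cyc1, the cytochrome c1 heme subunit of complex III, ran from 11.02 over a median of 12.44 to 12.98 log2 units in WT and from 12.09 over 12.75 to 13.12 in E2F2 null tumours, a log2 difference of 0.28 (SE 0.12, p = 0.0273). The E2F2 null tumours lacked the low values seen in the other groups, where the lowest were 11.45 in E2F1 null and 11.65 in E2F3 heterozygous tumours, but the upper parts overlapped. Ndufs4 ran from 9.42 over 9.91 to 10.42 in WT and from 9.79 over 10.08 to 10.56 in E2F2 null tumours (0.18, SE 0.090, p = 0.0458), again with broad overlap. Ndufa2, a peripheral-arm subunit of complex I, went the other way, from 11.54 over 11.81 to 12.18 in WT and from 11.48 over 11.68 to 11.90 in E2F2 null tumours (-0.13, SE 0.057, p = 0.0241).

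Ndufb9, a membrane-arm subunit of complex I, had the other high difference in E2F2 null tumours (0.21, SE 0.13, p = 0.0961), and Ndufa4 and Ndufa5 the lowest (-0.16, SE 0.11, and -0.15, SE 0.12). Cyc1 and Ndufb9 lie on chromosome 15 and Ndufa4 and Ndufa5 on chromosome 6, while Ndufs4 lies on chromosome 13 and Ndufa2 on chromosome 18. Chromosomes 15 and 6 were those whose means varied most between tumours, as described below. Their part in these differences between genotypes was not tested. By complex, the medians against WT were 0.05 for the 12 membrane-arm and 0.04 for the 13 peripheral-arm subunits of complex I, 0.10 for the 4 subunits of complex II, 0.14 for the 7 of complex III, 0.07 for the 6 of complex IV and 0.10 for the 6 of complex V. All 4 complex II genes (Sdha, Sdhb, Sdhc and Sdhd) were higher, by 0.07 to 0.13, and none had an unadjusted p under 0.05. Markers of other cells moved with this comparison: 5 of 19 fibroblast and matrix genes (median -0.16), 3 of 13 macrophage genes (-0.17) and 0 of 10 endothelial genes (-0.11) were higher in E2F2 null than in WT tumours, none of them called after adjustment, and their part in the members' values was not tested beyond the next value. Without the 5 tumours of highest fibroblast marker levels Cyc1 differed by 0.17 (p = 0.0957), 31 members were higher, and the median was 0.03.

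In E2F3 heterozygous against WT tumours, 9 members were higher and 40 lower, with a median of -0.04 log2 units against 0.007 over all genes. Of all genes 53.2% were higher. No member passed the adjusted threshold, where 0% of all genes did, and 0 had an unadjusted p under 0.05, where 0.662% of all genes did. Uqcrfs1, the Rieske iron-sulfur protein of complex III, had the lowest difference: it ran from 10.90 over 11.93 to 12.49 in WT and from 10.86 over 11.67 to 12.19 in E2F3 heterozygous tumours (-0.23, SE 0.12, p = 0.0594, adjusted p = 0.9999). The groups overlapped over nearly their whole ranges. Here 19 of 19 fibroblast and matrix genes (median 0.29), 10 of 13 macrophage genes (0.09), 9 of 10 endothelial genes (0.14) and 19 of 19 skeletal muscle genes (0.60) were higher than in WT, none of them called after adjustment. Without the 5 tumours of highest fibroblast marker levels, 3 of the 49 members were higher, the median was -0.05, and Uqcrfs1 differed by -0.27 (p = 0.0122, adjusted p = 1.0). The part of the muscle genes was not tested. Ndufa5 followed at -0.15 (SE 0.12). The highest differences were those of Ndufv1, the NADH-binding subunit of complex I (0.08, SE 0.11), and Atp5o, a stalk subunit of complex V (0.03, SE 0.083). Of the 49 confidence intervals, 49 lay within 0.5 of 0 here and 48 in the comparison of E2F2 null with WT, with that of Cyc1 reaching 0.52.

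**Figure D2:**
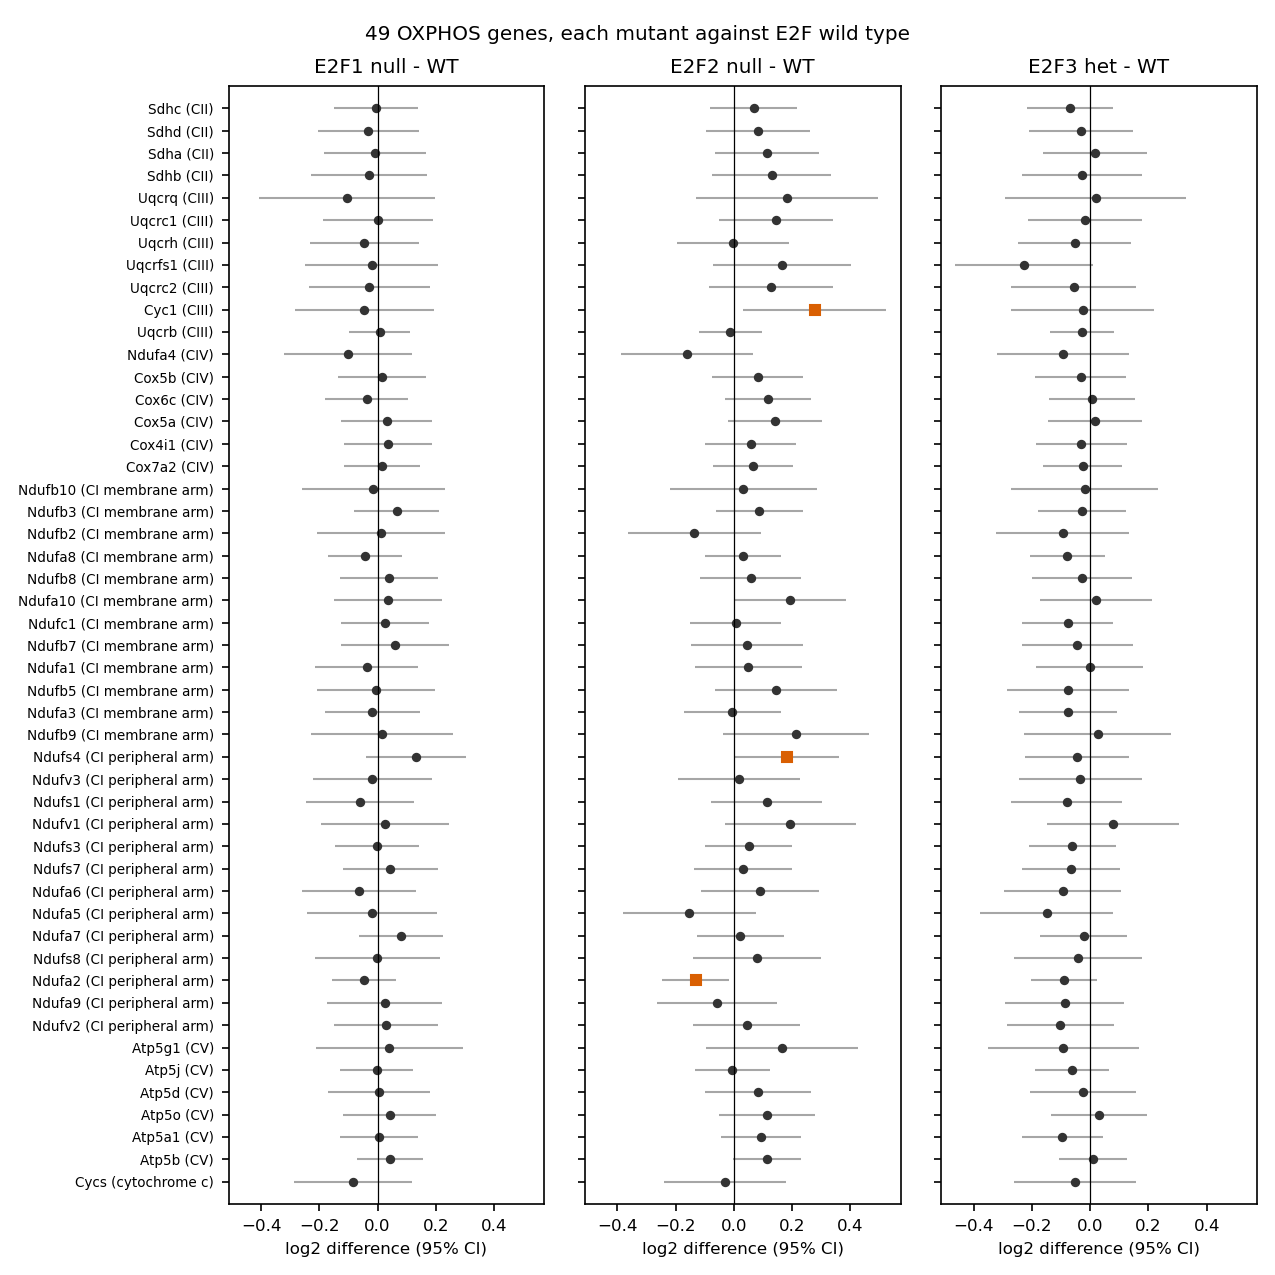
Log2 difference (x axis) of each of the 49 genes (y axis, with its complex in brackets; CI to CV are complexes I to V) between each mutant group and WT, 20 tumours per group. Points are limma estimates, bars 95% confidence intervals, and orange squares mark an unadjusted p under 0.05; 3 squares appear, all in E2F2 null tumours (Ndufa2, Cyc1 and Ndufs4), and none passed after adjustment.

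Between the mutant groups, which share no WT arrays but share each other's, 45 members were higher and 4 lower in E2F2 null than in E2F3 heterozygous tumours, with a median of 0.11 against -0.02 over all genes. Of all genes 44.5% were higher. The members vary together over tumours, as described below, so counts of their directions do not add up as separate evidence. No member passed the adjusted threshold (0.0342% of all genes did), and 5 (10.2%) had an unadjusted p under 0.05, against 7.53% of all genes. These were Uqcrfs1 (0.39, SE 0.12, p = 0.00185), Atp5a1, the catalytic-core alpha subunit of complex V (0.19, SE 0.071, p = 0.00954), Ndufs4 (0.23, SE 0.092, p = 0.0153), Cyc1 (0.30, SE 0.13, p = 0.0191) and Ndufb5 (0.22, SE 0.11, p = 0.0423). All 5 had an adjusted p of 0.633. For Uqcrfs1 the E2F2 null values, from 10.97 over 12.05 to 12.53, still overlapped the E2F3 heterozygous ones. Markers of other cells moved the opposite way: 0 of 19 fibroblast and matrix genes (median -0.46), 0 of 10 endothelial genes (-0.27), 1 of 13 macrophage genes (-0.21) and 1 of 19 skeletal muscle genes (-0.65) were higher in E2F2 null than in E2F3 heterozygous tumours, none of them called after adjustment. Without the 5 tumours of highest fibroblast marker levels, of which 2 are E2F3 heterozygous and 0 are E2F2 null, 43 members were higher, the median was 0.09 and 4 members had an unadjusted p under 0.05.

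In E2F1 null against E2F2 null tumours, 11 members were higher and 38 lower (median -0.07, all genes 0.02 with 56.1% higher). None passed the adjusted threshold (0.16% of all genes did), and Cyc1 (-0.32, SE 0.12, p = 0.0104, adjusted p = 0.439) and Cox6c, a small subunit of complex IV (-0.15, SE 0.074, p = 0.0397), had an unadjusted p under 0.05, 4.08% of the members against 9.58% of all genes. Cyc1 and Cox6c both lie on chromosome 15, whose part here was not tested. In E2F1 null against E2F3 heterozygous tumours, 39 were higher and 10 lower (median 0.03, all genes 0.002 with 50.8% higher). None passed the adjusted threshold (0.0799% of all genes did), and 1, Ndufs4 (0.18, SE 0.089, p = 0.0485), had an unadjusted p under 0.05, against 3.39% of all genes. The F test called 0 members (0.148% of all genes), with Uqcrfs1 (p = 0.0195), Cyc1 (p = 0.0388) and Ndufs4 (p = 0.0439) under an unadjusted 0.05, or 6.12% of the members against 4.24% of all genes, at a lowest adjusted p of 0.992. The 3 comparisons with WT share the WT tumours, and those between mutants share the mutant tumours, so the same gene recurring in several is not independent.

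The second question is how the members varied between tumours, whatever the genotype. The mean of the 49 genes ran from -0.55 to 0.43 log2 units over the 80 tumours, a 1.98-fold range, and each group spanned 1.54-fold to 1.92-fold. The lowest tumour was WT replicate 18, at -0.55, in which 0 of the 49 genes lay above their own 80-tumour mean. E2F1 null replicate 6 (-0.45), E2F3 heterozygous replicate 13 (-0.42) and E2F2 null replicate 7 (-0.41) came next, with 3, 0 and 3 genes above their means. The highest were E2F1 null replicate 3 (0.43, with 47 of 49 genes above their means), E2F2 null replicate 6 (0.41, 47 of 49), WT replicate 20 (0.39, 49 of 49) and E2F2 null replicate 9 (0.39, 46 of 49). Every genotype but E2F3 heterozygous, whose highest tumour lay at 0.20, thus held tumours at both ends.

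The complexes went together in these tumours. In WT replicate 18 the means were -0.57 and -0.55 for the membrane and peripheral arms of complex I, -0.49 for complex II, -0.66 for complex III, -0.37 for complex IV, -0.56 for complex V and -0.85 for Cycs, the gene of cytochrome c. In E2F1 null replicate 3 they were 0.44, 0.30, 0.64, 0.54, 0.47, 0.38 and 0.61 in that order. E2F2 null replicate 7 was an exception for 1 gene: its complexes lay between -0.53 and -0.22, while Cycs lay at -0.07.

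Tumours that share a label number were slightly closer in the median, but some lay far apart. E2F2 null replicates 6 and 7, at 0.41 and -0.41, carry the same one (3560) and lie at opposite ends. Over 36 pairs of tumours with a shared label number the median difference in the member mean was 0.161, against 0.186 over 724 pairs of one genotype with different numbers. These pairs overlap in tumours, and no test was made. Over all 8766 tested genes the limma fit estimated a consensus correlation of 0.159 between tumours with a shared label number.

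The genes differed in how much they varied. Uqcrq had the largest SD over the 80 tumours, 0.47 log2 units, and ran from 9.91 to 11.98. It was followed by Atp5g1, one of the genes for the membrane ring subunit c of complex V (SD 0.39), Cyc1 (0.39, from 11.02 to 13.12, or 4.28-fold), Ndufb9 (0.38), Uqcrfs1 (0.37) and Ndufb10, a membrane-arm subunit of complex I (0.37). The smallest SDs were those of Uqcrb, a complex III subunit (0.16, from 13.34 to 14.04, or 1.63-fold), Ndufa2 (0.17) and Atp5b, the catalytic beta subunit of complex V (0.18). So complex III held both the most and the least variable member by these probe sets. Only 1 of 4 Uqcrq probe sets lay above the filter, and the other Uqcrb probe set followed the brightest at r = 0.51. The median SD was 0.275 over the members, 0.358 over all tested genes and 0.278 over the 2098 tested genes at least as bright as the dimmest member. The members thus varied to a like extent as those 2098 genes, a set that includes the members and was not matched to their levels.

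What the members shared was the direction. After the genotype means were subtracted, the median Pearson correlation over the 1176 pairs of members was 0.518 (80 tumours), with 1126 pairs above 0 and 625 above 0.5, while the median over all pairs of tested genes was 0.0056. Within single genotypes the median ran from 0.463 in E2F3 heterozygous to 0.597 in WT tumours (n = 20 each). It was 0.504 without E2F1 null replicate 6. Quantile normalization gave 0.434, and centring each array on the median of its tested genes gave 0.633. These are descriptions over tumours, of which some share a label number, with no test. The tested genes had a median level of 8.71 log2 units, where the members lay between 10.01 and 13.62. No background of equally bright genes was taken for these correlations.

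The common scaling of the arrays touches this. The authors' values share a mean of about 500.2 per array, and the member mean went against the array's median log2 value (r = -0.74). That median itself ran only from 8.60 to 8.90, and its part in the pattern was not tested. The median correlation among members was 0.518, and it was 0.434 under quantile normalization and 0.633 with arrays centred on that median. Centring subtracts a value that ran against the member mean, which by itself raises the correlation among members. The higher value therefore cannot show what part the scaling had. The correlation of the member mean with the 3′ to 5′ ratio of the Gapdh control probe sets, which follows RNA degradation, was 0.12 over all tumours. Within genotypes it was highest with E2F2 null (0.43), followed by E2F3 heterozygous (0.30), WT (0.20) and E2F1 null (-0.23). For beta-actin it was 0.15 over all tumours, and 0.41, 0.02, 0.33 and -0.04 in the same order. The part of RNA quality in the members' values was not tested.

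Ndufb5, of the complex I membrane arm, followed the mean of the other 48 members most closely (r = 0.91), then Uqcrc1 and Uqcrfs1 of complex III (0.89 each). Ndufb5 ran from 11.33 over 11.84 to 12.52 in WT, from 11.12 over 11.88 to 12.46 with E2F1 null, from 11.15 over 12.03 to 12.50 with E2F2 null and from 11.22 over 11.83 to 12.19 with E2F3 heterozygous. The median over the 49 was 0.740, and 40 were above 0.5, where 9.57% of the 8717 other tested genes correlated above 0.5 with the member mean. The lowest were Ndufa7 (0.092), Ndufa2 (0.157) and Ndufa4 (0.347). Ndufa7 ran from 10.97 to 11.93 in WT tumours and Ndufa2 from 11.54 to 12.18, so both varied, but not with the rest. With arrays centred on the median their correlations were 0.280 and 0.409, still the lowest of the members, while the lowest correlation of any member was -0.09 under quantile normalization and -0.27 without the 5 tumours of highest fibroblast markers.

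The complex III mean followed the mean of all other members at r = 0.96, the membrane and peripheral arms of complex I at 0.95 and 0.93, complex V at 0.93, complex IV at 0.88, complex II at 0.86 and the single gene Cycs at 0.74. A mean over more genes carries less noise, so these values are not comparable between complexes of different size. Members of one complex were not uniformly closer to each other than to the rest: the median pair correlation was 0.651 within complex III against 0.598 with other members, and 0.594 against 0.522 for complex II, but 0.347 against 0.457 for the peripheral arm of complex I, which holds Ndufa2 and Ndufa7.

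**Figure D3:**
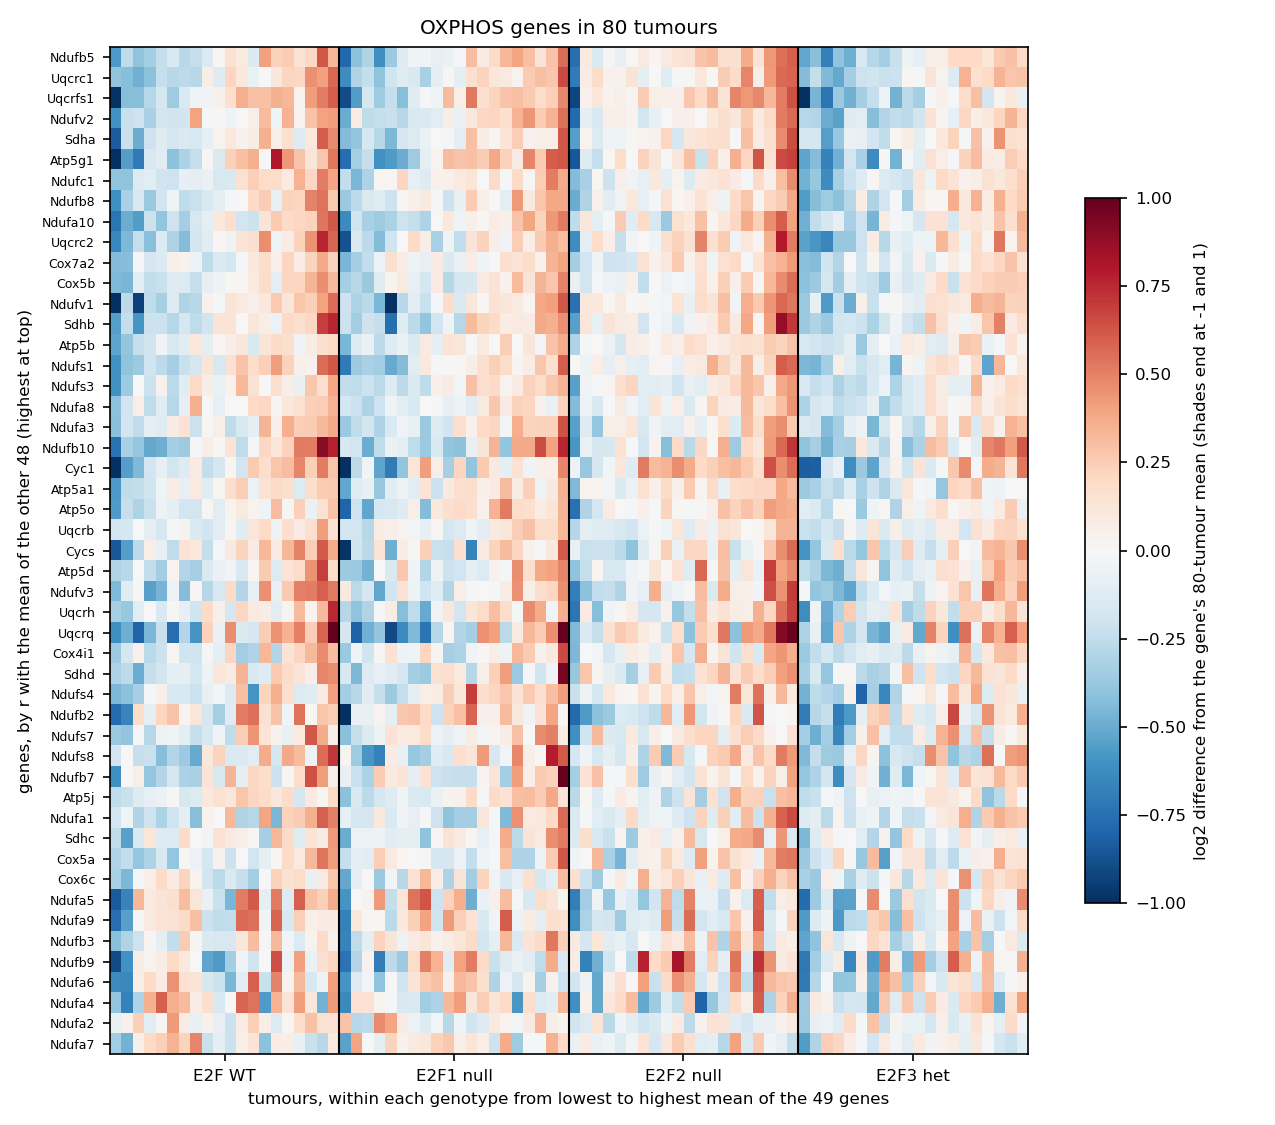
The 49 genes (rows, ordered by correlation with the mean of the other 48, highest at top) in 80 tumours (columns, grouped by genotype and ordered within each from the lowest to the highest member mean). Colour is the log2 difference from the gene's 80-tumour mean, with shades ending at -1 and 1; most rows turn from blue to red together in every genotype, while the bottom rows (Ndufa2, Ndufa7, Ndufa4) do not.

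A second pattern concerned genome position. Of the 9 members on chromosomes 6 and 15, 7 had a correlation with the other members below the median of the 49: Ndufa4, Ndufa5, Ndufa9 and Ndufb2 on chromosome 6, and Ndufa6, Ndufb9 and Cox6c on chromosome 15. Cyc1 on chromosome 15 (0.778) lay above it and Cycs on chromosome 6 (0.740) was the median itself. Beside the plain mean of the other genes of their own chromosome, the highest correlations of all 49 were those of Ndufb9 (0.42), Ndufa5 (0.40), Ndufa9 (0.38) and Cox6c (0.38), and the lowest those of Atp5b (-0.71) and Cox7a2, a complex IV subunit (-0.66); 13 of 49 were above 0.

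To set the chromosome apart from what all members share, each member was also taken as its difference from the members of other chromosomes, and its chromosome as the difference from all other chromosomes, a form chosen after the data were seen. In that form the 4 members on chromosome 15 had correlations with their chromosome of 0.56 (Cyc1) to 0.85 (Ndufb9), and the 5 on chromosome 6 of 0.39 (Cycs) to 0.90 (Ndufa9), with medians of 0.81 and 0.79, where the median of all 49 was 0.28. Chromosomes 15 and 6 were also those whose mean varied most between tumours among the 17 that hold members, with SDs of 0.22 and 0.17 log2 units against at most 0.093 for the others. Relative to the other chromosomes, the mean of chromosome 15 ran from -0.34 to 0.49 over tumours, and that of chromosome 6 from -0.21 to 0.31.

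This was not particular to oxidative phosphorylation genes. With both the gene and the chromosome taken relative to all genes elsewhere, the median correlation was 0.43 for the members on chromosome 6 and 0.43 for those on chromosome 15, while that of the 454 other tested genes of chromosome 6 was 0.48 and that of the 351 of chromosome 15 was 0.52. The members on chromosome 15 correlated with each other at a median of 0.703 (6 pairs) and with members elsewhere at 0.336, and those on chromosome 6 at 0.560 (10 pairs) and 0.378. Pairs of members that share another chromosome had a median of 0.627 (42 pairs) and pairs on different chromosomes 0.512 (1118 pairs).

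**Figure D4:**
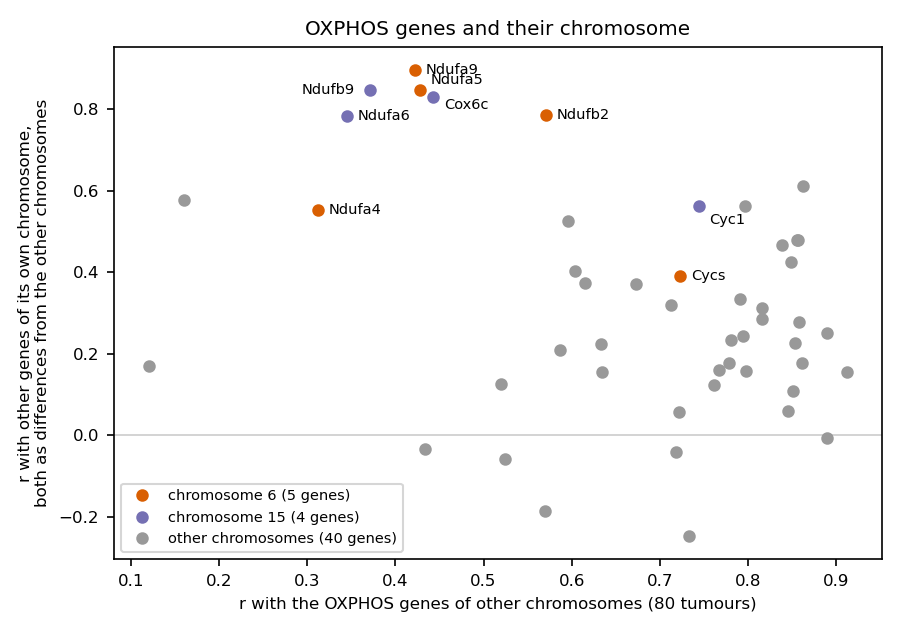
Each of the 49 genes by its correlation over 80 tumours with the oxidative phosphorylation genes of other chromosomes (x axis) and with the other genes of its own chromosome, both as differences from the rest (y axis). Orange points lie on chromosome 6, purple on chromosome 15 and grey elsewhere; Ndufa9, Ndufa5, Ndufb9, Cox6c, Ndufb2 and Ndufa6 sit at the upper left, with y values from 0.78 to 0.90.

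Genes of neighbouring mitochondrial functions, in lists held beside the members, went with them. The mean of 22 further subunit genes, such as Ndufab1, the acyl carrier protein of complex I (r = 0.92), followed the member mean at r = 0.96 (Spearman 0.95). The mean of 16 genes of the tricarboxylic acid cycle and pyruvate dehydrogenase did so at r = 0.96 (0.95), led by Pdhb (0.91) and Dlat (0.88) of pyruvate dehydrogenase and Idh3g of isocitrate dehydrogenase (0.86), with Ogdh lowest (0.27). For 24 genes of mitochondrial import and carriers r was 0.90 (0.89), for 32 assembly factors 0.89 (0.88) and for 49 mitochondrial ribosomal proteins 0.89 (0.89). Leaving out the 2 tumours farthest from the median of each list gave values between 0.87 and 0.96, and within single genotypes they ran from 0.83 to 0.98. Not every gene took part: among the assembly factors Sdhaf2, which attaches FAD to Sdha, was at -0.35, and among the mitochondrial ribosomal proteins Mrpl11 was at 0.05.

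The regulators of mitochondrial biogenesis were divided, and their values moved with the scaling. The mean of the 14 measured followed the member mean at r = 0.38 (Spearman 0.23), at 0.55 under quantile normalization, at 0.63 with arrays centred on the median and at 0.19 without the 5 tumours of highest fibroblast markers. Of the 14 genes, 7 correlated above 0 with the member mean. Tfb1m and Tfb2m, which act on mitochondrial ribosomal RNA and mitochondrial transcription (0.72 and 0.50), Esrra, the estrogen-related receptor alpha (0.67), Polrmt, the mitochondrial RNA polymerase (0.58), and Ppargc1b, a coactivator (0.56), were at 0.50 or above. Tfam, the mitochondrial DNA packaging factor, was at 0.31 and Gabpa at 0.13. Yy1 (-0.28), Gabpb1 (-0.25), Ppargc1a (-0.22) and Nrf1 (-0.30) were below 0. The motifs of Nrf1 and Yy1 occurred in member promoters, but these values are RNA levels, and the part of either factor was not tested. With arrays centred on the median, Esrra (0.72), Tfb1m (0.79) and Gabpa (0.37) were higher, Nrf1 (-0.19) and Yy1 (-0.04) were closer to 0, and Pprc1 (from -0.03 to 0.15) and Polg (from -0.04 to 0.22) changed sign.

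Myc, whose probe set may or may not read the transgene as well, ran from 12.48 to 13.92 log2 units over the tumours and followed the member mean at r = 0.52 (Spearman 0.42), from 0.36 in E2F1 null to 0.77 in WT tumours. Genes of ribosome biogenesis that Myc is known to drive (21 measured) did so at r = 0.69, and within genotypes from 0.41 to 0.88. The mean of 27 proliferation genes was at 0.40 over all tumours but between 0.42 and 0.60 in 3 genotypes and -0.18 in E2F2 null tumours, and that difference was not tested. Of those 27, 8 had an unadjusted p under 0.05 for higher values in E2F2 null than in WT tumours, among them Plk1, a mitotic kinase (0.36, SE 0.12, p = 0.00408), where 6.14% of all tested genes had such a p in either direction, and 0 passed after adjustment. E2f1 was at r = 0.03 and E2f3 at 0.07 over all tumours, but under quantile normalization they were at 0.30 and 0.31. Within genotypes E2f1 ran from -0.14 to 0.30 and E2f3 from -0.02 to 0.24. The E2f1 values are those of its brighter probe set, which did not pass between E2F1 null and WT tumours, as given above. The 22 glycolysis and hypoxia genes were at 0.23 as a mean but ranged from -0.58 (P4ha1, a collagen prolyl hydroxylase) to 0.66 (Pdk1, which inhibits pyruvate dehydrogenase) and 0.65 (Ldha).

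Markers of fibroblasts, macrophages and endothelium moved the opposite way. The means of 19 fibroblast and matrix genes (r = -0.60), 13 macrophage genes (-0.61) and 10 endothelial genes (-0.57) were lower where the members were higher. Every gene of these lists was below 0, from -0.77 for Fn1, fibronectin, to -0.03 for Cd14, a macrophage surface receptor, which turned to 0.06 with arrays centred on the median. The 7 basal and myoepithelial genes were at -0.43. Luminal epithelial genes (12, r = 0.13), skeletal muscle (19, 0.13), adipocyte (7, 0.35), lymphocyte (3, -0.07), milk protein (12, 0.37) and tissue-specific subunit isoform genes (4, -0.03) showed less over all 80 tumours. All 7 adipocyte genes were above 0, and the 3 lymphocyte genes ran from -0.71 to 0.16.

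The mean log2 level of the fibroblast list ran from 8.52 to 12.55 in WT, 8.23 to 12.94 with E2F1 null, 8.59 to 11.04 with E2F2 null and 8.87 to 12.21 with E2F3 heterozygous. All 19 fibroblast genes on the array passed the filter, as did all 10 endothelial genes and all macrophage genes but Itgam, while T and B cell markers such as Cd3e and Cd79a did not. The 5 tumours with the highest fibroblast mean were E2F1 null replicate 6 (12.94), WT replicate 6 (12.55), E2F3 heterozygous replicate 13 (12.21), WT replicate 18 (11.85) and E2F3 heterozygous replicate 3 (11.56). All 5 were among the 6 tumours with the lowest member mean, and no E2F2 null tumour was among them. Their part in the comparisons between genotypes was not tested beyond leaving them out. Without these 5 tumours the fibroblast list was at -0.39, the macrophage list at -0.45, the endothelial list at -0.36, the proliferation list at 0.13, Myc at 0.36 and the tricarboxylic acid cycle list at 0.95, and the median correlation between members was 0.447. The milk list was then at 0.44, the adipocyte list at 0.39, the lymphocyte list at 0.13, the muscle list at 0.08 and the luminal list at -0.002.

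**Figure D5:**
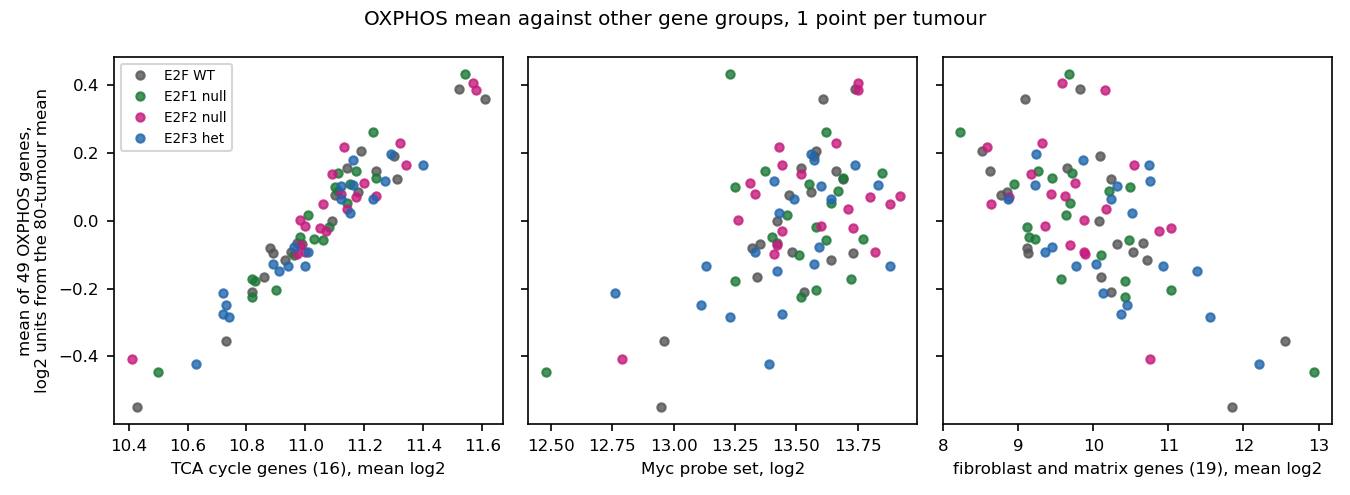
Mean of the 49 oxidative phosphorylation genes (y axis, log2 units from the 80-tumour mean) against the mean log2 value of 16 tricarboxylic acid cycle genes (left), the log2 value of the Myc probe set (middle) and the mean log2 value of 19 fibroblast and matrix genes (right), 1 point per tumour coloured by genotype. Points follow a line on the left (r = 0.96), scatter in the middle (r = 0.52) and slope down on the right (r = -0.60), where 4 tumours lie above 11.8 on the x axis. These r values were taken after genotype means were subtracted, while the points show the values before that step.

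Over all tested genes outside the members, those most like the member mean were Ndufab1 (0.92), Atp5j2, a complex V subunit (0.91), and Pdhb (0.91), and 27 of the 50 closest were in the mitochondrial lists. The closest genes outside every list were Mcrip2 (0.89), Eif2b1, a subunit of the translation factor eIF2B (0.87), Nop10, of the box H/ACA small nucleolar ribonucleoproteins (0.87), Mto1, which modifies mitochondrial tRNA (0.86), and Grpel1, a cochaperone of mitochondrial import (0.85). The most opposite were Prkacb, a catalytic subunit of protein kinase A (-0.86), Pla2g7, a secreted phospholipase of macrophages (-0.86), and Vasn (-0.85). With arrays centred on the median these were between 0.89 and 0.91 for the former 5 and between -0.84 and -0.82 for the latter.

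No gene of the other lists passed the adjusted threshold between any of the genotypes. In E2F2 null against WT tumours the higher share recurred in the mitochondrial lists: 40 of 49 mitochondrial ribosomal protein genes (median 0.11), 22 of 24 import and carrier genes (0.08), 21 of 32 assembly factors (0.04), 16 of 22 further subunits (0.03) and 13 of 16 tricarboxylic acid cycle genes (0.08) were higher, against 46.3% of all tested genes. The smallest unadjusted p among them were those of Mrpl15 (0.24, SE 0.10, p = 0.0188), of Sdhaf4, a complex II assembly factor that was lower (-0.14, p = 0.0267), and of Tomm22, an import receptor (0.25, SE 0.12, p = 0.0432). The genes of these lists vary together over tumours, as described, so such counts do not add up as separate evidence. In E2F3 heterozygous tumours 7 of 49, 7 of 24, 7 of 32, 1 of 22 and 4 of 16 were higher than in WT, against 53.2% of all tested genes and 19 of 19 fibroblast and matrix genes. The shifts were not confined to mitochondrial lists. In E2F2 null tumours 20 of 21 ribosome biogenesis genes (median 0.09) and 23 of 27 proliferation genes (0.20) were higher than in WT. So were 10 of 12 milk genes (0.74) and 9 of 12 luminal genes (0.15), but only 6 of 14 biogenesis regulators (-0.03). E2F3 heterozygous tumours had higher values in 3 of 21 ribosome biogenesis genes and 3 of 14 regulators. They were also higher in 15 of 27 proliferation and 12 of 12 milk genes.

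The choice of probe set was open for the 26 members with several probe sets above the filter. Their 41 other probe sets followed the brightest one at a median r of 0.736, and 34 of 41 did so above 0.5. Agreement was best for Ndufa3 (0.97) and Ndufb2 (0.96), both membrane-arm subunits of complex I. It was worst for the dimmest of 6 probe sets of Ndufs8, an iron-sulfur subunit of complex I (-0.12), and the dimmest of 3 of Atp5a1 (0.02). For Ndufs4, whose brightest probe set gave 0.13, 0.18 and -0.05 against WT (E2F1 null first, then E2F2 null, then E2F3 heterozygous), the 2 others gave 0.24, 0.11 and -0.07, and 0.04, 0.26 and 0.14. For Ndufa7, the member farthest from the rest, the 4 other probe sets followed the brightest at 0.46 to 0.88. The brightest probe set of some members carries a suffix with which Affymetrix marks probes that may match related sequences. It was _x_at for 2 members and _s_at for 3, namely Ndufa2, Uqcrq and Atp5d. Tested on their own, 0 member probe sets passed the adjusted threshold in any comparison.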

How the data were processed

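Total RNA of 80 tumours was measured on 1-colour Affymetrix arrays, 1 per tumour. The authors deposited linear intensity values, for which the submitters' processing notes name MAS5 and Affymetrix Expression Console without versions. These intensities ran from 0.0275 to 29812, and the trimmed mean of every array was 500.2, so they had been scaled to a common mean and a change in total mRNA per cell cannot be seen. The deposited intensities were here converted to log2(intensity + 5).

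Of 22626 probe sets without controls, the platform annotation gave 20380 exactly 1 symbol, 691 several and 1555 none; only the first kind was named. Each gene was represented by its brightest probe set, kept where the intensity was above the 40th percentile (74.6) on at least 10 arrays. Chromosomes came from the RefSeq table of GRCm38.p6, and the deposited file names no build.

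All 4 genotypes entered one limma 3.58.1 fit (R 4.3.3), with trend and robust options and the label number as a random block (consensus correlation 0.159), and p-values were Benjamini-Hochberg adjusted over 8766 genes. Correlations are over tumours after subtraction of genotype means, in Python 3.11.15 with pandas 2.3.3 and scipy 1.17.1. Replicate numbers follow accession order and only name a tumour. Array precision is limited by the number of tumours, and no spot-level depth applies. The members, the other gene lists and the tests were chosen with earlier results of these data known. Named in each comparison with WT were members with an unadjusted p under 0.05 and the 2 highest and 2 lowest differences; over tumours, those with the largest and smallest spread, agreement with other members, with their chromosome and between probe sets; of other lists, those with the smallest p or the highest and lowest correlations. The effect of 13 alternative settings is given in the closing section.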

Additional observations from a re-analysis of the deposited data

How the results depend on the processing

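The counts of called members stayed at 0 in all 7 tests under the 13 alternatives: pseudocounts of 1 and 16, no filter, a stricter filter, no label number term, 1 mean per label number, quantile normalization, arrays centred on the median, every probe set on its own, the mean of the probe sets of a gene, no trend and no robust option, no E2F1 null replicate 6, and no 5 tumours of highest fibroblast markers. The last was chosen after the data were seen. Over these settings the lowest adjusted p of a member ran from 0.617 to 0.908 for E2F2 null against WT and from 0.23 to 0.936 for E2F2 null against E2F3 heterozygous tumours, where 3 to 9 members had an unadjusted p under 0.05. The median member difference from WT ran from -0.019 to 0.024 in E2F1 null, from 0.034 to 0.117 in E2F2 null and from -0.053 to -0.012 in E2F3 heterozygous tumours. The median correlation of a member with the others ran from 0.664 (quantile normalization) to 0.811 (arrays centred on the median). Of the members named in comparisons with WT, only Atp5o changed its direction in any of these settings, from 0.03 to -0.0089 in E2F3 heterozygous tumours without the 5 tumours; it was not called in either. No paired analysis was possible because the replicate numbers follow accession order and pair nothing across genotypes. The SEs were near 0.09 log2 units with 20 tumours in a group, and differences as large as 0.39 (Uqcrfs1, SE 0.12, adjusted p = 0.633, E2F2 null against E2F3 heterozygous tumours) were not called. Probe sets give no absolute comparison between genes.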
